A study of Mus musculus with 8 samples.

Results

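The JAK-STAT pathway genes described here are 10 genes chosen by symbol, from a pathway linked to asrij in blood stem cells, out of 54749 genes in the series. They comprise the kinases Jak1, Jak2, Jak3 and Tyk2, the transcription factors Stat3, Stat5a and Stat5b, and the feedback inhibitors Socs1, Socs3 and Cish. The members were taken by name, with earlier results of these data known. RNA from sorted long-term HSCs (LT-HSCs) of bone marrow was sequenced in 8 libraries, 4 from asrij floxed mice (replicates 1, 3, 4 and 5) and 4 from asrij KO mice (replicates 2, 3, 4 and 5), all given an age of 6 months in the labels. Asrij is the mouse gene Ociad1. Per the study's methods, the KO removes asrij in the whole body, the controls are homozygous for the floxed allele, and the cells were gated as LSK CD150+ CD48+. The question addressed is whether transcripts of this pathway differ in KO LT-HSCs.

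Cytokine receptors have no kinase of their own. JAK kinases bound to the receptor chains phosphorylate the receptor and then the STAT proteins, which pair, enter the nucleus and bind DNA at a palindrome of TTC and GAA. Among the genes they switch on are Cish and the Socs genes, whose proteins shut the receptor down again. In HSCs, signalling through Jak2 and Stat5 is known for maintaining quiescent stem cells.

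The letters that STAT proteins are known to bind occur near the start of 2 members, and these stretches are shown because both members are feedback inhibitors. RefSeq promoters (GRCm38.p6, 250 bases before to 50 after a start) matched all 10 members with 12 windows. TTCNNNGAA, which reads alike on both strands, was found in the windows of Cish and Socs3 and in none of the other 8 members, and in 8.3% of all 32851 windows. Cish had a pair of these motifs, which did not overlap and whose first bases were 11 bases apart. At least 2 motifs were found in 0.457% of windows. A match is a match of letters and not a measured binding site. The motifs are in capitals.
Cish, chr9:107296654-107296683, + strand: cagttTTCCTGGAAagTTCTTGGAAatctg
Socs3, chr11:117969502-117969531, − strand: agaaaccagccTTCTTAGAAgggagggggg

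The deposited value of a library is a whole-number count for each Ensembl transcript, and each gene is represented by 1 transcript, the one that drew most counts when all libraries are added. Gene counts summed to between 23412830 and 44874879 per library, and the 10 members had between 153 counts (Socs1) and 10470 counts (Jak1) in a library. Levels are given as CPM, counts relative to a library size scaled by the trimmed mean of M-values (TMM). The targeted gene Ociad1 fell in the KO, with a log2 fold change of −1.58 (SE 0.27, adjusted p = 0.0249), and every KO library (11.7 to 19.7 CPM) lay below every floxed library (31.3 to 66.9 CPM). Without floxed replicate 1 or KO replicate 2, 4 or 5, the adjusted p of Ociad1 was 0.0759 to 0.0882. Of the stem cell markers, Kit was between 46.8 and 60.2 CPM and Cd48 between 35.2 and 55.2 CPM, while Procr was below 1 CPM in all 8 libraries. Neutrophil markers summed to 16657 to 52915 CPM in the floxed libraries and 25138 to 31813 CPM in the KO, with floxed replicate 3 lowest. Erythroid markers summed to 27662 to 69835 CPM in the floxed libraries and 121848 to 294710 CPM in the KO, without overlap. Megakaryocyte markers summed to 61.7 to 127 CPM in the floxed and 202 to 242 CPM in the KO libraries, also without overlap. The sum of T and NK cell markers was lower in every KO library (52.8 to 58.7 CPM, against 68.9 to 93.7 CPM), with 1 of 8 genes lower at an adjusted p under 0.05 (Ncr1). Cd4 and Cd8a went the other way, with estimates of 0.44 and 0.18, and Cd4 was higher in every KO library. The separation of the T and NK cell sums rested on Cd3d, at 19.7 CPM in floxed replicate 3, which had the lowest floxed sum. In the other libraries Cd3d was at 2.32 to 3.74 CPM. Plasma cell markers summed to 136 to 325 CPM in the floxed and 135 to 140 CPM in the KO libraries, with 2 of 5 genes lower (Jchain and Prdm1). Monocyte markers (749 to 2051 and 1059 to 1108 CPM) and B cell markers (309 to 580 and 535 to 574 CPM) overlapped between floxed and KO libraries. Both overlapped only through floxed replicate 3. Of 8 B cell genes, 2 were higher in the KO at an adjusted p under 0.05 (Cd79a and Vpreb1). In such bulk samples, fewer cells of a type and less RNA per cell cannot be told apart. The part of these markers in the results below was not tested.

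All 10 members passed the filter on low counts, and none passed an adjusted p of 0.05 in the comparison of KO with floxed by edgeR's quasi-likelihood test, against 2.97% of the 21902 genes tested. The estimate was below 0 in 9 of the 10, against 50.4% of all genes. An unadjusted p under 0.05 was found for Jak1 and Tyk2, or 2 of 10, against 21.8% of all genes. The same 2 kinases had all KO libraries below all floxed libraries, against 7.67% of genes. The median log2 fold change of the members was −0.41, beside −0.0058 over all genes tested. DESeq2 passed 1 member, Jak1 (adjusted p = 0.0087), against 11.2% of genes, and limma-voom passed none, against 2.21% of genes. Scaling by total counts passed Tyk2 (against 4.15% of genes), the sum over transcripts passed Jak1 (against 2.79%), and a block for replicate numbers 4 and 5 passed Jak1, Jak2 and Tyk2 (against 18.5%).

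**Figure D1:**
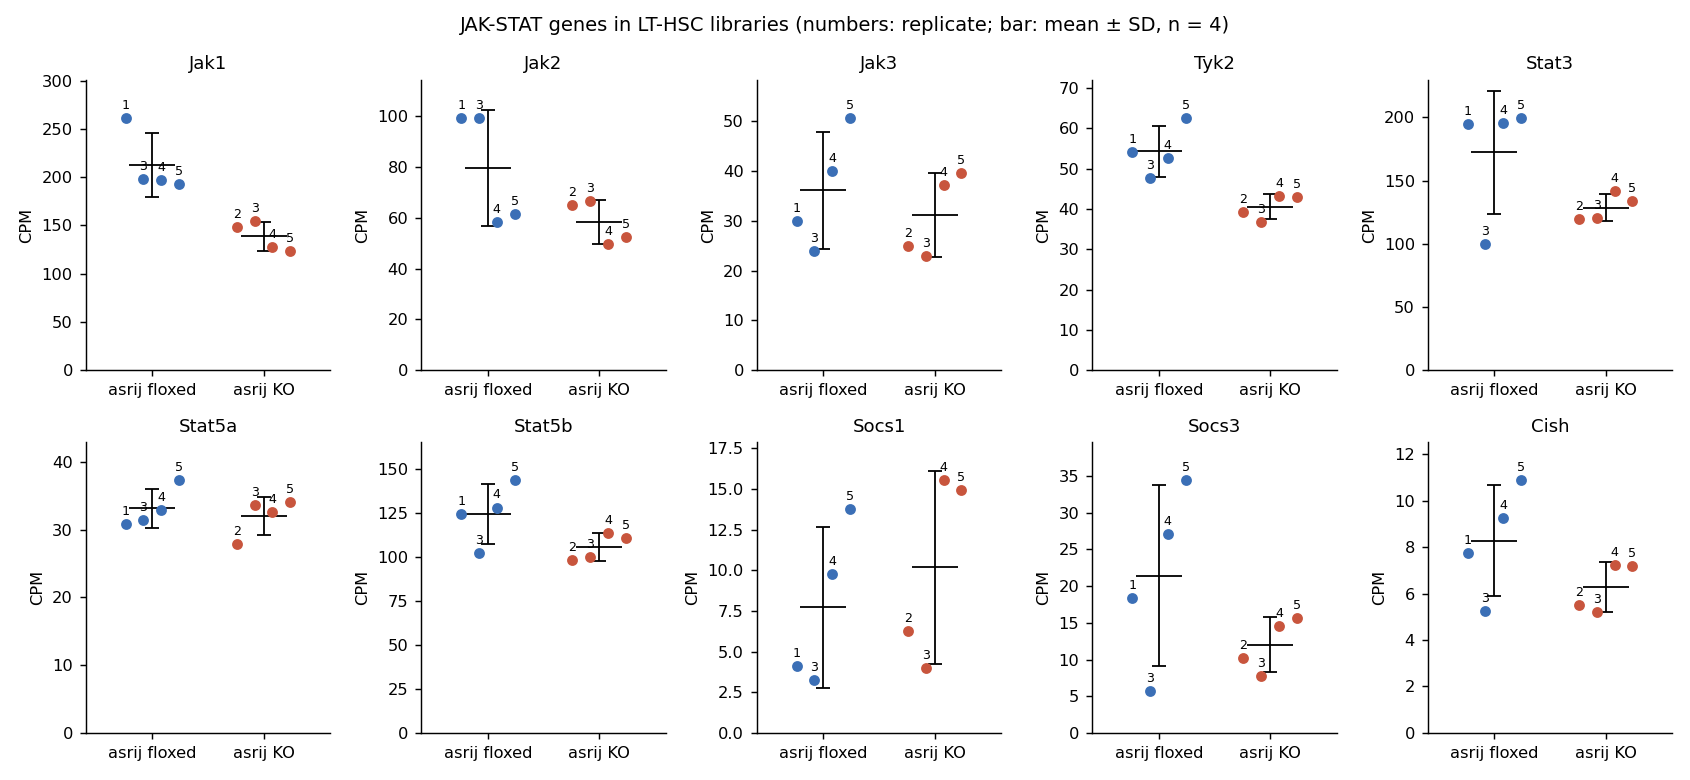
CPM of each JAK-STAT gene (vertical axis) in the 4 asrij floxed (blue) and 4 asrij KO (red) libraries, with the replicate number at each point and bars for mean ± SD. The groups are apart for Jak1 and Tyk2, and floxed replicate 3 sits far below the other floxed libraries for Stat3.

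Jak1 serves the interferon, common gamma chain and gp130 receptors. In the order of their replicate numbers, which is kept below, the floxed libraries held 262, 198, 197 and 193 CPM and the KO libraries 148, 155, 127 and 124 CPM. Every KO library was lower than every floxed library, and floxed replicate 1 stood above the other 3 floxed libraries. The means were 212 ± 32.9 and 139 ± 15.4 CPM (SD, n = 4 each), and the fitted log2 fold change was −0.62 (SE 0.17, 95% interval −0.99 to −0.24, adjusted p = 0.0728). The difference in log2(CPM + 1) was −0.58 among libraries numbered 1 to 3 and −0.63 among those numbered 4 and 5. Jak1 covers chr4:101152367-101265282 on the − strand (GRCm38), and no 50-base stretch of its spliced transcript occurred in another gene. Raver2 overlaps 4 bases of the Jak1 span and the pseudogene Gm12785 lies within it. Their totals were 1.28% and 0.236% of that of Jak1.

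Tyk2, the partner of Jak1 at interferon receptors, was at 54.2, 47.6, 52.6 and 62.7 CPM in the floxed libraries and 39.3, 36.9, 43.2 and 43.0 CPM in the KO. The groups did not overlap, and the gap between them was narrow, from 43.2 to 47.6 CPM. The log2 fold change was −0.42 (SE 0.14, 95% interval −0.73 to −0.11, adjusted p = 0.123). An antisense gene, 1700084C06Rik, overlaps 24324 bases of Tyk2 and had a total 110% that of Tyk2, so that reads of the pair cannot be told apart without the strand.

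Jak2, which serves the erythropoietin receptor, was at 99.4, 99.5, 58.5 and 61.6 CPM in the floxed libraries and 65.0, 66.6, 49.7 and 52.5 CPM in the KO. Libraries numbered 4 and 5 were lower than the others in both genotypes, and the genotypes overlapped. The log2 fold change was −0.45 (SE 0.22, 95% interval −0.94 to 0.04, adjusted p = 0.266), and the difference in log2(CPM + 1) was −0.59 among libraries 1 to 3 and −0.23 among libraries 4 and 5. Jak3, the kinase of the common gamma chain, ranged from 24.0 to 50.7 CPM in the floxed and 22.9 to 39.6 CPM in the KO libraries, with a log2 fold change of −0.21 (95% interval −0.82 to 0.39, adjusted p = 0.699). For Jak3 the libraries numbered 4 and 5 were all higher than the others. Insl3 lies on the same strand within the Jak3 span and its total was 21.5% of that of Jak3.

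The STAT factors had a median log2 fold change of −0.24, beside −0.43 for the kinases. Stat3, the factor of the gp130 and granulocyte colony-stimulating factor receptors, was at 195, 99.7, 195 and 200 CPM in the floxed libraries and 119, 120, 142 and 134 CPM in the KO. The genotypes overlapped only through floxed replicate 3, which was below every KO library. The log2 fold change was −0.42 (SE 0.23, 95% interval −0.93 to 0.09, adjusted p = 0.318), and without floxed replicate 3 it was −0.60 (adjusted p = 0.0078). In that fit 17.5% of all genes passed, and 4 members did, namely Jak1, Tyk2, Stat3 and Socs3. Leaving out any other single library gave Stat3 an adjusted p of 0.449 to 0.594. Without floxed replicate 3, the neutrophil markers also no longer overlapped, the other floxed libraries summing to 46267 CPM or more. The same held for the monocyte and plasma cell markers, and for the B cell markers, which were higher in the KO.

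Stat5a did not differ between genotypes beyond its spread. It measured 30.9, 31.5, 32.9 and 37.3 CPM in the floxed and 27.9, 33.6, 32.6 and 34.1 CPM in the KO libraries. The log2 fold change was −0.05 (SE 0.14, adjusted p = 0.876), with an interval of −0.36 to 0.26. Stat5b was at 124, 102, 128 and 143 CPM in the floxed and 98.2, 99.6, 114 and 110 CPM in the KO libraries, which overlapped, with a log2 fold change of −0.24 (SE 0.15, 95% interval −0.58 to 0.10, adjusted p = 0.400). The ratio of Stat5b to Stat5a counts was 3.75 ± 0.35 in the floxed and 3.30 ± 0.26 in the KO libraries (SD, n = 4 each), ranges that overlapped.

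Stat5a and Stat5b are neighbours with Stat3 on chromosome 11 and share sequence, which limits this ratio. Of all 50-base stretches, 16.4% of the Stat5a transcript and 12.1% of the Stat5b transcript occurred in another gene. Their coding sequences held 324 identical bases in a row, positions 571 to 894 of 2379 coding bases in Stat5a and of 2358 in Stat5b. A read within this stretch fits both genes alike, and its first 90 bases are shown for that reason, in lower case throughout since no base differs.
Stat5a and Stat5b: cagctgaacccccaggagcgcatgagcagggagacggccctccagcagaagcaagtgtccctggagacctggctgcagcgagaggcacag

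Of the feedback inhibitors, Socs3 and Socs1 had estimates of opposite sign, and neither passed the test. Socs3, which restrains gp130 and granulocyte colony-stimulating factor receptor signalling, was at 18.3, 5.75, 27.1 and 34.4 CPM in the floxed and 10.2, 7.75, 14.5 and 15.7 CPM in the KO libraries. Floxed replicate 3 was again the lowest of all 8 libraries. The log2 fold change was −0.83 (SE 0.46, 95% interval −1.87 to 0.21, adjusted p = 0.339). Without floxed replicate 3 it was −1.14 (adjusted p = 0.0319), in the fit where 17.5% of all genes passed. Leaving out any other single library gave Socs3 an adjusted p of 0.404 to 0.591. The difference in log2(CPM + 1) was −0.21 among libraries 1 to 3 and −0.97 among libraries 4 and 5.

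Socs1, the inhibitor of interferon receptor signalling, was at 4.14, 3.23, 9.78 and 13.8 CPM in the floxed and 6.25, 3.98, 15.5 and 14.96 CPM in the KO libraries. Here the library number separated the values and the genotype did not. Libraries 4 and 5 were higher than the others by 1.43 in log2(CPM + 1) in the floxed and by 1.44 in the KO group. The log2 fold change between genotypes was 0.40 (SE 0.55, 95% interval −0.83 to 1.63, adjusted p = 0.723). In all, 3 members (Jak2, Jak3 and Socs1) had libraries 4 and 5 apart from the rest, against 25.7% of all genes. Cish, a STAT5 target that restrains STAT5 activation, was low at 5.24 to 10.9 CPM in the floxed and 5.23 to 7.24 CPM in the KO libraries, with a log2 fold change of −0.39 (95% interval −0.96 to 0.17, adjusted p = 0.400). The antisense gene Gm17041 lies within Cish and its total was 77.1% of that of Cish.

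**Figure D2:**
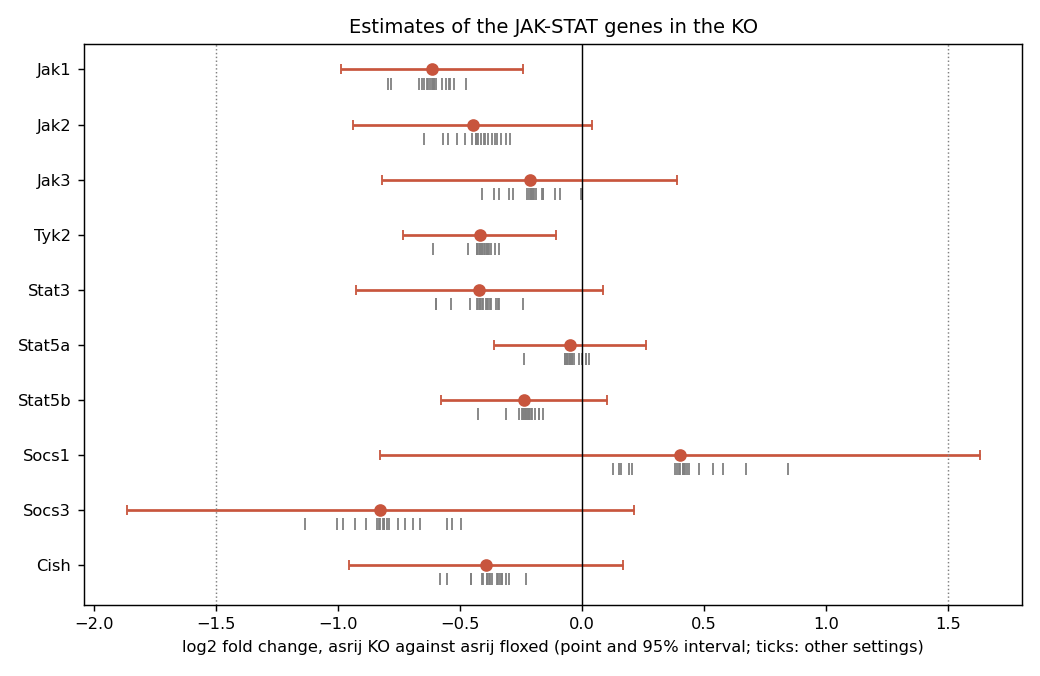
Log2 fold change of each JAK-STAT gene, asrij KO against asrij floxed (horizontal axis), as a point with its 95% interval, above grey ticks for the estimates under the other settings. Only the intervals of Jak1 and Tyk2 exclude 0, and no point reaches the dotted lines at −1.5 and 1.5.

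**Figure D3:**
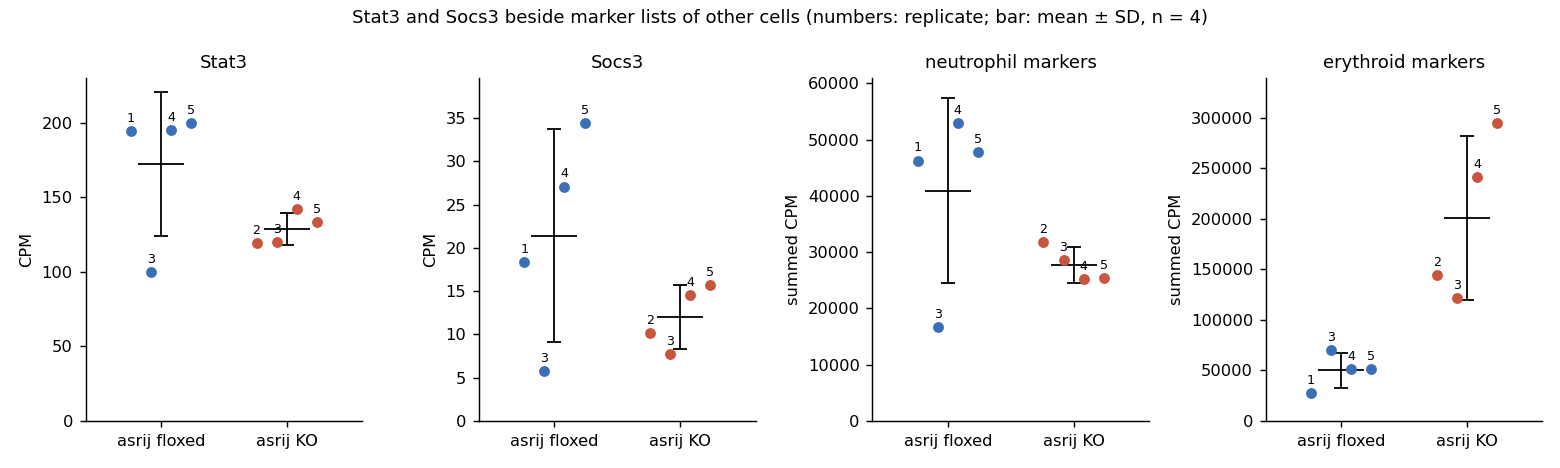
CPM of Stat3 and Socs3 and summed CPM of neutrophil and erythroid markers (vertical axes) in the 4 asrij floxed (blue) and 4 asrij KO (red) libraries, with replicate numbers and bars for mean ± SD. Floxed replicate 3 is the lowest library for Stat3, Socs3 and the neutrophil markers, and the erythroid markers are higher in every KO library.

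Levels can be compared between the members only per length. Per kilobase of the spliced transcript, the mean level in the floxed libraries was highest for Jak1 (43.3 ± 6.71 CPM per kb), followed by Stat3 (28.5 ± 8.03), Stat5b (24.6 ± 3.38), Jak2 (16.1 ± 4.60) and Tyk2 (11.4 ± 1.31). Jak3 (8.998), Stat5a (8.52), Socs3 (8.38), Cish (3.02) and Socs1 (2.66) were lower. The ranges of neighbours in this order were apart for Jak1 and Stat3 and for Stat5b and Jak2, and overlapped for the other neighbours. Reads of introns are in these counts, and per kilobase of the genomic span the order began with Socs3 (6.88 ± 3.97 CPM per kb), Stat3 (3.17) and Jak3 (2.53) and ended with Stat5a (1.28), with overlap between all neighbours.

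Counts run over the full span of a transcript, introns included, so shorter transcripts nested in a gene show where along the gene its reads lie. Of 31 nested transcripts in 8 members that held under 50% of the gene's count, 26 had an estimate below that of the whole gene, and over all genes this was so for 71.9% of 36406 transcripts. The median difference from the whole gene was −0.63 on the log2 scale in the members and −0.23 over all genes. These transcripts overlap one another and share reads, so they are not separate measurements. When each transcript was tested by itself, 5 of 55 member transcripts had an adjusted p under 0.05, all lower in the KO, against 2% of transcripts passing in that direction.

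Of these 5, 4 were Jak1 transcripts. Jak1-208, which covers 83410 bases from the 5′ end of the gene, was at 32.9, 36.9, 13.4 and 22.3 CPM in the floxed and 8.87, 10.6, 8.02 and 7.90 CPM in the KO libraries. Its log2 fold change was −1.47. Jak1-204, a span of 5835 bases inside the gene, was at 24.1, 22.6, 12.9 and 15.3 CPM in the floxed and 6.33, 6.48, 5.22 and 5.69 CPM in the KO libraries, with a log2 fold change of −1.57 (adjusted p = 0.0086). As a share of the Jak1 count, Jak1-204 took 6.54% to 11.4% in the floxed and 4.09% to 4.60% in the KO libraries, without overlap. Jak1-207, near the 3′ end, had an estimate of −0.39 and did not pass the test (adjusted p = 0.75).

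Tyk2-205, the 5′ stretch of Tyk2, gave a log2 fold change of −1.06 (adjusted p = 0.0492). Stat5a-207, a span of 16824 bases in the 5′ part of Stat5a, was at 6.78, 10.8, 5.14 and 8.89 CPM in the floxed and 2.90, 3.41, 4.68 and 4.38 CPM in the KO libraries. Its groups did not overlap although those of Stat5a as a whole did, and its log2 fold change of −0.95 did not pass the test (adjusted p = 0.073). All 14 Stat3 transcripts had estimates below 0, from −1.32 to −0.37, and none passed.

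**Figure D4:**
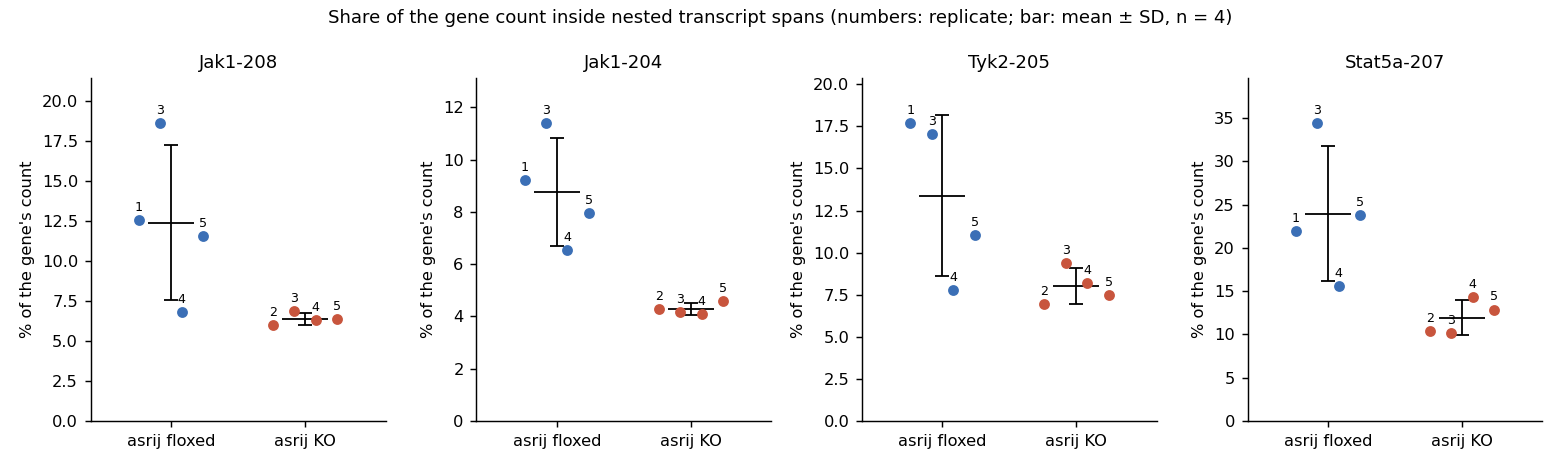
Reads within 4 nested transcripts as a percentage of the count of their gene (vertical axis) in the 4 asrij floxed (blue) and 4 asrij KO (red) libraries, with replicate numbers and bars for mean ± SD. The KO shares lie below all floxed shares for Jak1-204 and Stat5a-207 and overlap for Jak1-208 and Tyk2-205. The 4 transcripts were chosen after their values were seen.

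Among 99 other genes of the pathway, 85 passed the filter on low counts and 2 had an adjusted p under 0.05, of which 1 rose and 1 fell, against 1.22% of all genes that rose and 1.75% that fell. The 14 genes not tested were ligands. Of the 85, none passed with an absolute log2 fold change above 1.5, against 1.19% of all genes. The median log2 fold change of the 85 was −0.13. With the replicate number as a block (numbers 3, 4 and 5), neither of these and none of the 10 members passed, against 0.222% of all genes.

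None of 30 receptor chains passed the test. Csf3r, the granulocyte colony-stimulating factor receptor, had a log2 fold change of −0.65 (adjusted p = 0.0806) with every KO library lower, and Csf2ra was at 0.08 (adjusted p = 0.935). The highest estimate among the receptors, chosen after its values were seen, was Epor at 1.69 (adjusted p = 0.0655), with every KO library higher beside the erythroid markers.

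Il15, the cytokine that signals through Jak1 and Jak3, fell among the 10 ligands tested. It was at 24.2, 21.9, 17.7 and 17.2 CPM in the floxed and 8.82, 10.2, 6.14 and 7.97 CPM in the KO libraries. Every KO library was lower, and the log2 fold change was −1.29 (SE 0.20, adjusted p = 0.0210; −1.23 and adjusted p = 0.0895 with the block). The call was lost without floxed replicate 1 or KO replicate 2, 4 or 5, at adjusted p from 0.0694 to 0.0833. Osm had an estimate of −0.67 (adjusted p = 0.352), and the row named Epo spans 50223 bases and 7 other genes, so its count is not that of Epo alone.

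Bcl2l1, which encodes the survival protein Bcl-xL, rose among 25 STAT target genes. It was at 98.5, 155, 130 and 140 CPM in the floxed and 303, 284, 433 and 405 CPM in the KO libraries. The groups were far apart, with a log2 fold change of 1.44 (SE 0.21, adjusted p = 0.0164; 1.40 and adjusted p = 0.105 with the block). Bcl2l1 no longer passed an adjusted p of 0.05 without floxed replicate 1 or 5 or KO replicate 4 or 5, at adjusted p from 0.0510 to 0.0658. Bcl2l1 is also known as an erythroid survival gene, and haemoglobin genes took 2.85% to 7.67% of gene counts in the floxed and 12.2% to 24.3% in the KO libraries. A link between the rise of Bcl2l1 and this share was not tested. The other target genes named by their level, Mcl1 (0.06, adjusted p = 0.909) and Ccnd3 (0.30, adjusted p = 0.439), did not pass. Fos had the lowest estimate of any listed gene, −2.16 (adjusted p = 0.0640), chosen after its values were seen. It was at 8.55 CPM in floxed replicate 3 and 56.3 to 78.8 CPM in the other floxed libraries, against 9.83 to 17.3 CPM in the KO.

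No gene passed among the 3 other kinase and STAT genes, the 5 other SOCS genes and the 12 other negative regulators. Stat6 had an estimate of −0.42 (adjusted p = 0.197) and Stat2 of −0.04 (adjusted p = 0.900). Socs4 was at −0.40 (adjusted p = 0.486) and Socs6 at −0.37 (adjusted p = 0.184). Of the negative regulators, the ubiquitin ligase Cbl had the estimate furthest from 0, −0.83 (SE 0.19, adjusted p = 0.0501), with 277 to 450 CPM in the floxed and 174 to 211 CPM in the KO libraries, which did not overlap. The phosphatase Ptprc (CD45) was at −0.68 (adjusted p = 0.140).

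**Figure D5:**
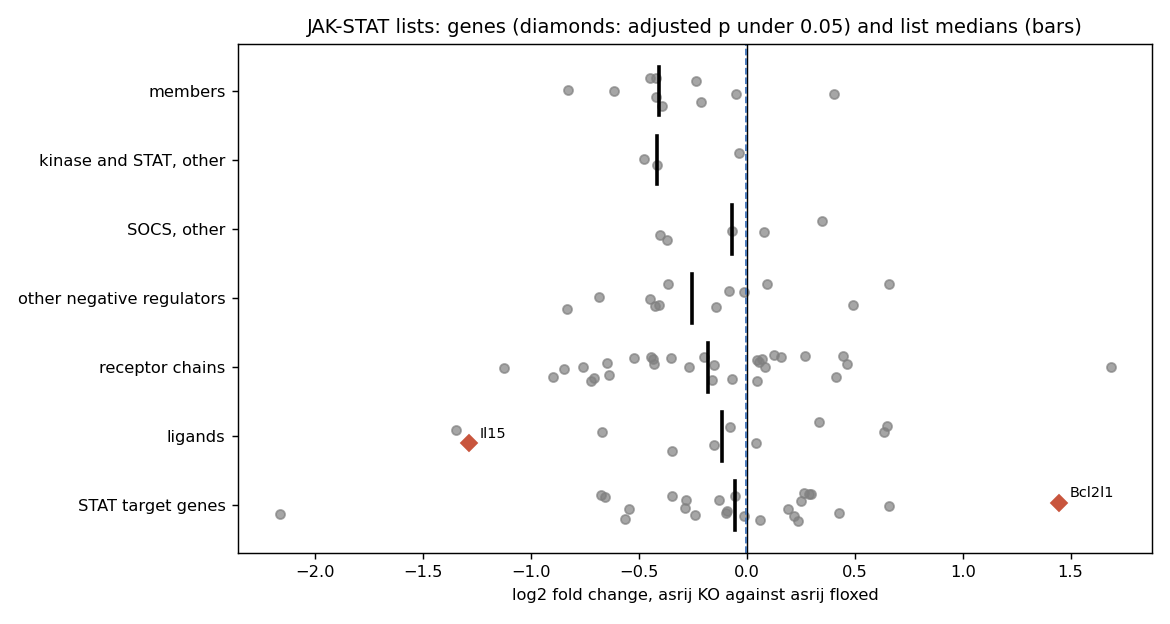
Log2 fold change, asrij KO against asrij floxed (horizontal axis), of each tested gene of the members and 6 other JAK-STAT lists, with diamonds for an adjusted p under 0.05, black bars for list medians and a dashed line for the median of all genes. Bcl2l1 lies at 1.44, Il15 at −1.29, and no member is a diamond.

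The genes whose values across the 8 libraries were most like those of Jak1, the member with the smallest p, were Baz1a, Exoc3, Ranbp9, Slfn9 and Spopl, out of 18211 genes with a mean of at least 1 CPM. Their root mean square differences from the centred log2(CPM + 1) of Jak1 were 0.0515 to 0.0629.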

How the data were processed

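Per the labels and the study's methods, total RNA of sorted LT-HSCs was made into NEBNext Ultra libraries, and reads went through FastQC and Trim Galore before the authors aligned them by Bowtie 2 against GRCm38/mm10 transcripts. The counting tool, annotation release, strand setting, read length and software versions are not given in the sources used here. The deposited values are raw counts, whole numbers in all 8 files, for 138930 Ensembl transcripts. In 4405 of 4405 nested transcript pairs (2891 on opposite strands) the outer count was at least the inner one, so counts cover introns and both strands, and 47.4% of genes overlap another gene with a count. This touches the levels per kilobase and every gene with an overlapping neighbour.

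GENCODE M21 gave the gene of 138789 transcripts, and gene counts were tested with edgeR 4.0.16 (filterByExpr, TMM, quasi-likelihood test, Benjamini-Hochberg over 21902 genes; R 4.3.3). SEs and 95% intervals come from this fit. Replicates are separate mice per the methods, and p-values measure the spread between 4 and 4 mice. The members and lists were chosen with earlier results of these data known. The genes named were all members, Ociad1, the genes of each list with an adjusted p under 0.05 or among its 2 highest mean CPM, and the 5 genes most like the member with the smallest p; Epor and Fos, marker genes and genes that overlap a member were named outside this rule. Alternatives used DESeq2 1.42.0, limma-voom 3.58.1, other scalings, filters, gene counts, blocks and leaving out each library. Shared replicate numbers come from the titles. Same-numbered libraries deviated together (r across genes 0.427 to 0.707 for 3 pairs), as did differently numbered libraries where both were below 4 or both were 4 or 5 (mean r 0.532 for 5 pairs), and the block was applied as an alternative. The scripts were tested on simulated data. No RefSeq proteins were used here, and 2 genes were left out of the pathway lists and are not reported here. Python 3.11.15, numpy 2.4.6, scipy 1.17.1, pandas 2.3.3 and matplotlib 3.10.9 were used for the other steps.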

Additional observations from a re-analysis of the deposited data

Results flagged for a closer look

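In 3 of 50 groups of 4 libraries looked at, the gap of 1 library to the nearest of the other 3 exceeded Dixon's 95% critical value as a share of the range, where chance gives about 1 group in 20, or 2.5. Jak1 was at 8.04 in log2(CPM + 1) in floxed replicate 1, against 7.60 to 7.64 in the other floxed libraries. Stat3 was at 6.65 in floxed replicate 3, against 7.61 to 7.65. Stat6 was at 6.55 in floxed replicate 3, against 7.10 to 7.21.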

How the results depend on the processing

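The call rule (adjusted p under 0.05 and absolute log2 fold change above 1.5) gave 261 genes, and 503 with DESeq2, 44 with the replicate block (numbers 3, 4 and 5), 521 with a term that sets numbers 4 and 5 apart, 1067 transcripts tested by themselves, 651 without the fold limit, 624 with an unadjusted p, and 51 (without floxed replicate 1) to 857 (without floxed replicate 3) when a library was left out. The cause was not tested. Members passing an adjusted p of 0.05 numbered 0, but 1 with total counts (Tyk2, −0.61), 1 with DESeq2 (Jak1, −0.61), 1 with the sum over transcripts (Jak1, −0.78, adjusted p = 0.0465), 3 with the block for numbers 4 and 5 (Jak1 −0.62, Jak2 −0.42, Tyk2 −0.42; 18.5% of all genes pass there), and 0 to 4 when a library was left out, the 4 without floxed replicate 3 (Jak1 −0.64, Tyk2 −0.47, Stat3 −0.60, Socs3 −1.14). The replicate block changed no member's call and left the estimate of Stat5a at 0.0016; this turned to 0.016 in its transcript fit, and leaving out a library gave −0.069 to 0.028. Leaving out a library gave Jak1 −0.67 to −0.48, Jak2 −0.57 to −0.30, Tyk2 −0.47 to −0.34, Stat3 −0.60 to −0.34, Socs3 −1.14 to −0.50, Stat5b −0.31 to −0.16, Jak3 −0.36 to −0.0030 (nearest 0 without floxed replicate 5), Cish −0.55 to −0.23 and Socs1 0.13 (without KO replicate 4) to 0.84 (without floxed replicate 5). Total counts shifted the median of all genes from −0.0058 to −0.196 and reversed Csf2ra (−0.11), Epo (−0.14) and Mcl1 (−0.13); leaving out a library gave these −0.16 to 0.40, −0.15 to 0.25 and −0.086 to 0.19. Stat2 (−0.04) reversed with all genes of at least 1 count (0.00033) and in its transcript fit (0.029). Pathway genes passing numbered 2, and 9 with total counts, 4 with all genes of at least 1 count, 4 with CPM above 1 in 4 libraries, 12 with DESeq2, 0 with the replicate block, 19 with the block for numbers 4 and 5, 4 by transcript, and 0 to 23 when a library was left out (0 without floxed replicate 1, KO replicate 4 or 5; 23 without floxed replicate 3). Per spliced in place of genomic kilobase, levels moved for Jak1 (1.88 to 43.3), Jak2 (1.30 to 16.1), Jak3 (2.53 to 8.998), Tyk2 (1.997 to 11.4), Stat3 (3.17 to 28.5), Stat5a (1.28 to 8.52), Stat5b (1.78 to 24.6) and Cish (1.36 to 3.02).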
